A study of Mus musculus with 16 samples.

Results

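The comparison set Pmel T cells from skin against Pmel T cells from liver, using 1224 skin cells and 556 liver cells, or 1780 of the 5727 cells of the series. All 8516 of 9223 genes with at least 20 counts summed over both tissues were compared, and 707 genes with fewer were not, 84 of them with 0 counts in both. At the edge of that rule, 74 genes had exactly 20 counts and 72 had 19. Pmel cells are CD8+Thy1.1+ T cells with a transgenic receptor for a melanocyte antigen that melanoma cells share, and Thy1.1 marks them. Skin and liver cells alike came from C57BL/6 mice aged 16 weeks with melanoma-associated vitiligo, 45 days after tumor surgery, and neither the number of mice nor how the cells were sorted is stated in the labels. Skin was minced and digested for 45 minutes at 37 °C with 3 mg/mL collagenase IV, and liver was pressed through a mesh, digested for 40 minutes at 37 °C with 0.6 mg/mL collagenase IV and put through a Percoll gradient. Each tissue has 4 samples whose titles differ in an ending of the kind used for flow cell lanes, so each tissue counts as 1 library and no difference was tested.

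Memory CD8 T cells that stay in a tissue typically hold CD69, which opposes the egress receptor S1PR1, and in epithelia often the integrin CD103, encoded by Itgae, which binds E-cadherin. Cells that travel between blood and organs keep the transcription factor KLF2, which drives S1pr1 transcription. Liver memory cells include cells that patrol the sinusoids, where blood and T cells meet without a tight barrier, whereas skin memory cells sit in or near the epidermis. Immediate early genes such as Fos, Nr4a1 and Egr1 are transcribed within minutes after receptor signaling or cell stress, tissue digestion included.

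The summed counts were 3292210 in skin and 1928185 in liver, with medians of 2518 and 3096 counts per cell and 1084 and 1149 genes per cell. No cell barcode was shared between skin and liver, while skin shared 7 with lung and 4 with lymph node, and liver 1 with lung. All 10 CD8 T cell markers had counts, with 27885 CPM in skin and 21714 CPM in liver, where CPM is counts of a gene per 1000000 counts pooled over the cells of a tissue. Of 12 keratinocyte markers 3 were measured (Krt10, Perp and Sfn), at 82.0 CPM in skin and 56.5 CPM in liver. Of 14 hepatocyte markers 2 were measured (Apoe and Trf), at 13.1 and 9.34 CPM. Of 13 macrophage markers 6 were measured, at 6.07 and 29.6 CPM, with Adgre1, Csf1r, Lyz2 and Marco at 0 in both tissues. Of 10 B cell markers 8 were measured, at 10.6 and 15.04 CPM, with Cd79a, Ms4a1, Ighd and Iglc2 at 0 in both. Of 11 natural killer cell markers 4 were measured, at 2395 and 11130 CPM; Gzma, which CD8 T cells also express, gave 1401 and 11049 CPM of this and Xcl1 988 and 51.3 CPM. Melanocyte, neutrophil and erythroid markers were not analysed here. Hepatocyte, macrophage, endothelial and B cell markers reached at most 2.41% of skin cells and 2.28% of liver cells at equal depth, and a share of cells at or below those values is read as background. That limit is a choice among the lists: keratinocyte Sfn reached 6.69% of skin cells and 7.79% of liver cells, fibroblast Gsn 3.44% and 3.61%, and Cd74 of dendritic cells 18.8% and 9.89%, so a higher limit would take in more of the shares given below.

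The skin and lymph node columns carry an unexplained 2 in their names and the lung and liver columns do not, so the comparison ran across that division. Pseudogene counts divided the same way, at 7766 CPM in skin against 2102 CPM in liver, with 2149 CPM in lung and 7074 CPM in lymph node. Relative to their parent genes, 13 of 14 pseudogenes were higher in skin than in liver, with a median log2 ratio of 2.41, and ribosomal protein genes took 18.3% of skin counts and 24.8% of liver counts. Tissue and library cannot be told apart with 1 library each. Levels in lung and lymph node are given beside many of the main results so that genes which follow the division can be seen.

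Immediate early, NF-kB and tissue residency genes and most cytokine genes were higher in skin, and egress, granzyme, interferon stimulated and Gimap genes were mostly lower in skin than in liver. Across the 8516 genes, 1397 were at least 2-fold higher in skin (16.4% of the genes compared) and 432 were at least 2-fold lower in skin (5.07%), while 78.5% lay within 2-fold. Any excess in skin, however small, was found for 5529 genes (64.9%). With median-of-ratios size factors in place of total counts, every log2 ratio moved by -0.23, and 1026 genes were at least 2-fold higher and 685 at least 2-fold lower. The median log2 ratio over all genes was 0.25 on the total-count scale, and the medians of lists below are to be read against it. Counts of list members at least 2-fold higher or lower are likewise to be read against the 16.4% and 5.07% of all genes. At 4-fold or more, 346 genes were higher and 96 lower in skin, and at 10-fold or more 86 were higher and 31 lower. Counting error alone left 394 genes higher and 154 lower whose 95% interval stayed beyond 2-fold. Every interval here is exact and takes in counting error alone, so that variation among mice or libraries is outside it. Intervals of ratios also leave out variation among cells. Without 1 skin cell, the Xcl1 ratio given below falls outside its interval.

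**Figure D1:**
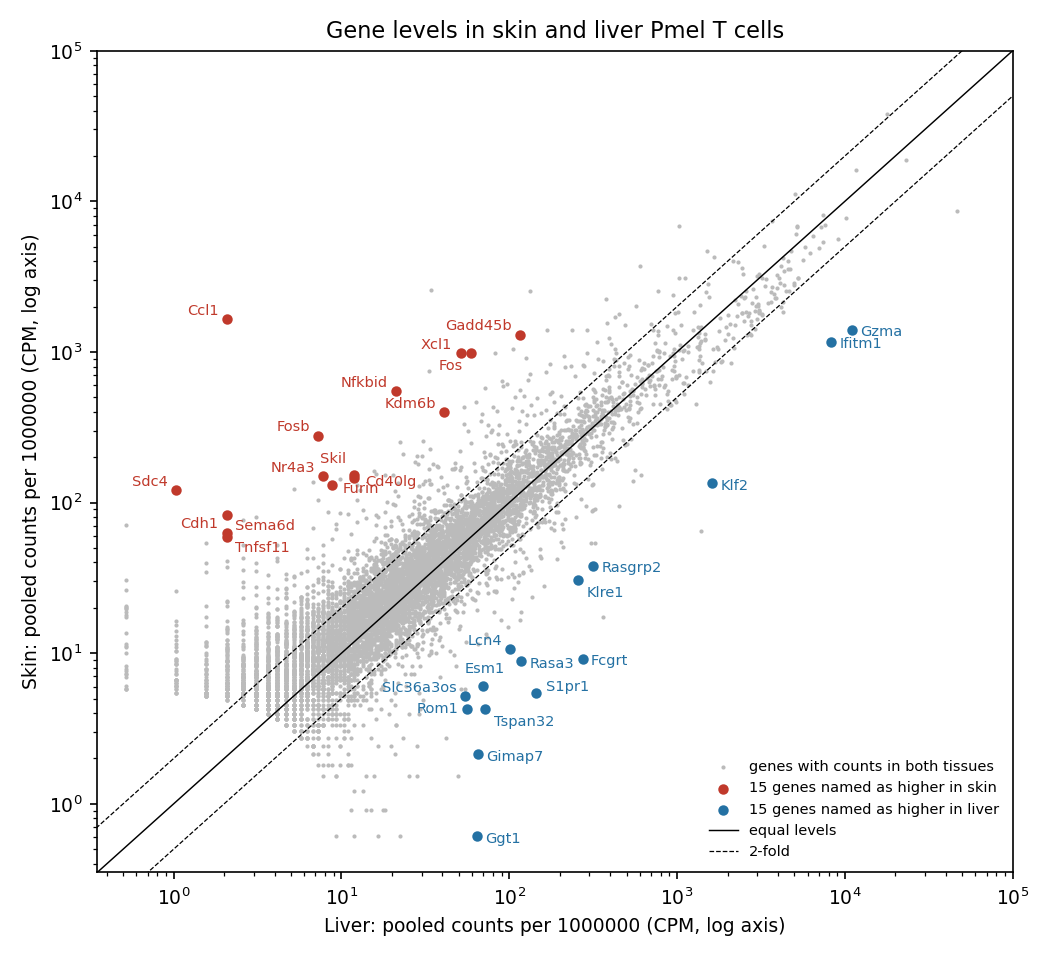
Pooled level of each gene in liver (horizontal, CPM, log axis) and skin (vertical, CPM, log axis), with equality as a solid line and 2-fold as dashed lines. Red points are the 15 genes named as higher in skin, led by Ccl1 at 1658 CPM in skin and 2.07 CPM in liver, and blue points the 15 named as higher in liver, led by Ggt1. Genes with 0 counts in liver (17) or skin (1) are not drawn.

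The regulatory sequences shown first are from promoters of genes whose interval lay beyond 2-fold, because immediate early genes are known targets of CREB and AP-1 factors, and KLF factors bind CACCC boxes. Promoter windows of 250 bases before to 50 bases after the start, from RefSeq on GRCm38.p6, were matched by symbol with a single window for 5233 of the 8516 genes. Both strands were searched for the cAMP response element (CRE, TGACGTCA), the AP-1 element TGACTCA or, on the other strand, TGAGTCA, and the CACCC box, CCACACCC or, on the other strand, GGGTGTGG. None of the 3 contains another. The CRE stood in 3.92% of 766 windows of genes at least 2-fold higher in skin, 4.01% of 274 windows of genes at least 2-fold lower, and 3.67% of all 5233. The AP-1 element stood in 3.26%, 3.28% and 2.98% of the same windows. The CACCC box stood in 2.87%, 5.84% and 3.92% of them, and in 3.58% of the 22862 single windows of the whole promoter table. Among genes whose interval lay beyond 2-fold, the CRE stood in 3.08% of 195 windows of genes higher in skin and 1.06% of 94 windows of genes lower in skin, the AP-1 element in 3.08% and 5.32%, and the CACCC box in 3.59% and 8.51%. The largest of these shares rests on 8 windows of 94.
Among 48 named, residency, egress, immediate early or NF-kB genes with a single window, the 250 bases before the start held a CRE in 2 of the 30 that were higher in skin and in 0 of the 18 that were higher in liver. The AP-1 element was there in none of the 48, and the CACCC box in 1 of the 30 and in 5 of the 18. These counts cover only the 250 bases before the start, in genes chosen by list and interval. The shares above also take in the 50 bases after the start, so they are no direct background for these counts. A stretch of 120 bases is shown for 4 of the 48 genes, 5′ to 3′ on the gene's strand, with the motif in capitals.
Dusp1, higher in skin, chr17:26508552-26508671, minus strand, CRE: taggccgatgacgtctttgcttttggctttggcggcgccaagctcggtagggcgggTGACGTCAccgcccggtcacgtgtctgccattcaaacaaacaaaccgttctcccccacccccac
Xcl1, higher in skin, chr1:164935548-164935667, minus strand, CACCC box: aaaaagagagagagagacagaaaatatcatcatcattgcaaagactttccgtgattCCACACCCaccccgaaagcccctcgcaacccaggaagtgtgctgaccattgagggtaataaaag
Fcgrt, higher in liver, chr7:45103953-45104072, minus strand, CACCC box: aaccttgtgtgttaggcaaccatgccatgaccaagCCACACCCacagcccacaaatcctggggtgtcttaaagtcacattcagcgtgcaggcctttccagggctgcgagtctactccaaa
Ifitm1, higher in liver, chr7:140967956-140968075, plus strand, CACCC box: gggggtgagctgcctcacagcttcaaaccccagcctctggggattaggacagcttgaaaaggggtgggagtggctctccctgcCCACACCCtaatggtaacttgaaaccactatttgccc
These are letters in a window and describe no binding, and a window without a motif says nothing of the factor.

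Retention and egress genes such as Cd69 and Klf2 differed between the tissues in level and in the share of cells with a count. Cd69 stood at 614 CPM in skin and 96.5 CPM in liver, 6.36-fold higher in skin (95% interval 5.47 to 7.43), with 127 CPM in lung and 94.9 CPM in lymph node. Itgae, the integrin chain of CD103, had 542 CPM in skin against 179 CPM in liver, with 191 CPM in lung and 373 CPM in lymph node. Skin was thus the highest of the 4 libraries for both genes, and for Itgae the lymph node lay nearer to skin than lung and liver did. After each cell was thinned to 1900 counts, which left 1077 skin cells and 526 liver cells and dropped 147 and 30 shallower ones, 58.4% of skin cells and 14.8% of liver cells had a Cd69 count. For Itgae the shares were 62.3% and 27.9%. Counts of both genes were found in 38.2% of skin cells (35.2 to 41.1) and 3.61% of liver cells (2.19 to 5.58). The product of the separate shares of Cd69 and Itgae was 36.4% in skin and 4.14% in liver. That product is the joint share when counts of both genes fall independently, so the joint shares add little to the separate ones.

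Klf2, on chromosome 8 (72319033 to 72321656, GRCm38, GENCODE), was 12.0-fold lower in skin (10.9 to 13.3), at 134 CPM against 1616 CPM in liver, and stood at 1115 CPM in lung and 276 CPM in lymph node. S1pr1, the sphingosine-1-phosphate receptor that leads cells out of tissue (chromosome 3, 115710433 to 115715072), was 26.3-fold lower in skin (16.3 to 45.0), at 5.47 CPM against 144 CPM. Lung had 99.4 CPM and lymph node 15.4 CPM of S1pr1. Both Klf2 and S1pr1 thus stood higher in liver and lung than in skin and lymph node, the division of the column names. A count of S1pr1 was found in 22.6% of liver cells and 1.11% of skin cells, the latter below the limit read as background. Klf2 and S1pr1 were counted together in 0.836% of skin cells and 20.9% of liver cells, where the products of the separate shares were 0.188% and 19.0%. S1pr1 without Klf2 was counted in 0.279% of skin cells. Whether the S1pr1 counts in skin are background was not tested. Cells with both Klf2 and Cd69 were about as frequent in each tissue, at 10.03% of skin cells (8.30 to 12.0) and 11.8% of liver cells (9.16 to 14.9). The products for Klf2 and Cd69 were close to that, at 9.87% and 12.4%.

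**Figure D2:**
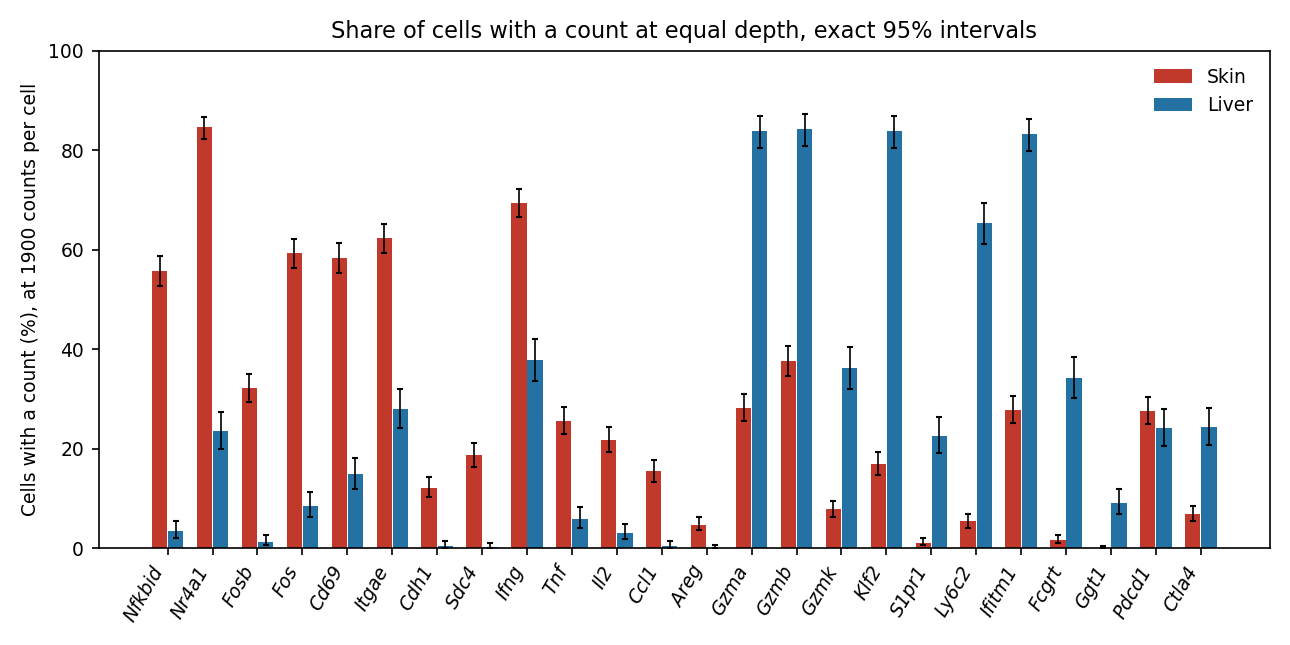
Share of cells with at least 1 count of each gene (vertical, percent) after thinning to 1900 counts per cell, in skin (red, left of each pair, 1077 cells) and liver (blue, right, 526 cells), with exact 95% intervals. Cd69 was counted in 58.4% of skin cells and 14.8% of liver cells, and Klf2 in 16.9% and 83.8%.

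Of the 20 counted members of the egress and recirculation list, 16 were lower in skin, 13 of them at least 2-fold, and 2 were at least 2-fold higher. The median log2 ratio was -1.73. Ly6c2, a surface antigen of circulating memory cells with near-identical relatives, had 64.7 CPM in skin and 1392 CPM in liver, with 1560 CPM in lung and 65.5 CPM in lymph node. S1pr4, another sphingosine-1-phosphate receptor, was 4.78-fold lower in skin (94.8 against 453 CPM), and Itgb1, the beta 1 integrin chain, 3.93-fold lower (139 against 548 CPM). These genes were low in skin and lymph node and high in liver and lung. Rasgrp2, which activates the integrin regulator RAP1, had 38.0 CPM in skin and 316 CPM in liver, and Rasa3, which turns RAP1 off, had 8.81 and 118 CPM. They divided the same way, with 306 and 125 CPM in lung and 84.1 and 30.2 CPM in lymph node. Ccr7, the receptor for lymph node homing, was higher in skin, but on 39 counts against 3 with 20 of them in 1 skin cell (7.61-fold, 2.42 to 38.5).

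The residency list ran the other way, with 36 of 37 counted members higher in skin, 23 at least 2-fold higher and 1 at least 2-fold lower, and a median log2 ratio of 1.42. The list holds immediate early members such as Nr4a1 and shares members with other lists, so its count is not separate from theirs. Cdh1, which encodes E-cadherin, the ligand of CD103, had 63.2 CPM in skin and 2.07 CPM in liver, 30.5-fold higher (11.7 to 113). Lung had 6.57 CPM and lymph node 14.1 CPM of Cdh1. Litaf, whose product acts in endosomal sorting, was 5.37-fold higher (429 against 79.9 CPM), and Qpct, a glutaminyl cyclase, 4.70-fold higher (176 against 37.3 CPM). Itga1, the alpha chain of CD49a, had 48.6 CPM in skin and 17.1 CPM in liver. Cxcr6, a chemokine receptor that holds memory cells in liver sinusoids, differed little, at 1346 CPM in skin and 967 CPM in liver (1.39-fold, 1.32 to 1.47), with counts in 83.7% and 78.5% of cells. Runx3 and Bhlhe40, transcription factors of resident cells, had intervals that held equality, at 1.05-fold (0.874 to 1.27) and 1.08-fold (0.975 to 1.20). The only member at least 2-fold lower was Ctla4, an inhibitory receptor, at 44.0 CPM in skin and 154 CPM in liver.

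As a share of a single cell's counts, the residency list made up a median of 1.02% in skin and 0.392% in liver, and the egress list 0.123% and 0.623%. Of skin cells, 92.6% lay below the 10th percentile of liver cells for the egress list, and 84.6% lay above the 90th percentile of liver cells for the residency list. On both lists the difference thus ran through most skin cells and not a small group. For the residency list that is not separate from the immediate early genes it holds. Members of both lists were chosen with earlier results of these data known.

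**Figure D3:**
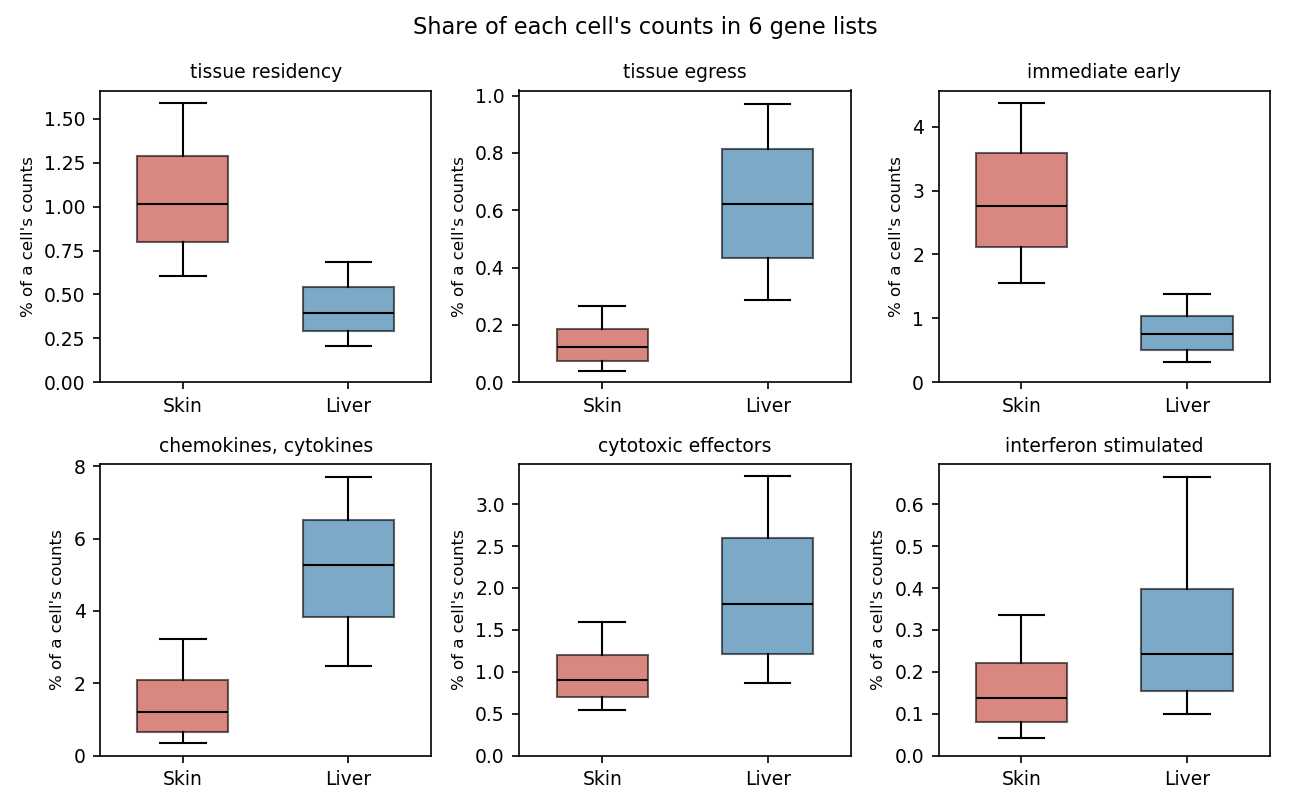
Share of a cell's counts that fell on 6 gene lists (vertical, percent), in skin (left, 1224 cells) and liver (right, 556 cells); boxes span the quartiles with the median as a line, and whiskers reach the 10th and 90th percentiles. For immediate early genes the medians were 2.76% in skin and 0.755% in liver, and for chemokines and cytokines, where Ccl5 dominates, 1.20% and 5.26%.

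Immediate early genes were higher in skin nearly throughout. Of 37 counted, 34 were higher and 31 at least 2-fold higher, none was 2-fold lower, and the median log2 ratio was 2.20. Fosb, an AP-1 subunit on chromosome 7 (19302696 to 19310051), had 278 CPM in skin and 7.26 CPM in liver, 38.3-fold higher (22.7 to 70.4), with 9.91 CPM in lung and 10.8 CPM in lymph node. Fos had 982 and 59.1 CPM, 16.6-fold higher (13.8 to 20.2), with 106 CPM in lung and 73.3 CPM in lymph node. For both genes the other 3 libraries lay close together and skin stood alone. Nr4a1, a nuclear receptor gene induced by T cell receptor signaling, had 1395 CPM in skin and 167 CPM in liver, 8.35-fold higher (7.46 to 9.38), and liver itself stood above lung (23.5 CPM) and lymph node (11.9 CPM). Nr4a3, its relative, had 150 CPM in skin and 7.78 CPM in liver (19.3-fold, 11.6 to 34.7), with 0.372 CPM in lung and 2.65 CPM in lymph node. Nr4a2 had 243 CPM in skin and 90.8 CPM in liver (2.68-fold, 2.27 to 3.17). At equal depth 84.6% of skin cells and 23.6% of liver cells had an Nr4a1 count.

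Among feedback genes of the same list, Dusp1, a phosphatase that switches off MAP kinases, had 1394 CPM in skin and 235 CPM in liver, and Atf3, a stress-induced transcription factor, 210 and 23.3 CPM. Junb, the most abundant AP-1 subunit here, had 6837 and 1034 CPM, 6.61-fold higher in skin (6.32 to 6.93), with 697 CPM in lung and 2783 CPM in lymph node. Egr2, a transcription factor induced by receptor signaling, had 76 counts in skin and 0 in liver, at least 14.8-fold higher when liver is set at 3 counts. Dusp2 was an exception, with 208 CPM in skin and 329 CPM in liver (1.58-fold lower, 1.42 to 1.77), and Ier2 differed less than the others, with 1295 and 770 CPM. In all, 92.1% of skin cells had a larger share of immediate early counts than the 90th percentile of liver cells. Heat shock genes had 8074 CPM summed in skin and 7525 CPM in liver. Of 19, 1 was at least 2-fold higher (5.26%, against 16.4% of all genes) and 0 lower. Their median log2 ratio of 0.0076 turned to -0.22 with size factors and -0.023 for per-cell means. With totals free of ribosomal, mitochondrial, pseudogene and predicted genes it was -0.087. Hspa8 and Hsp90ab1 had skin-over-liver ratios of 0.992 and 1.01. Tissue and digestion protocol cannot be told apart here, since each tissue had its own.

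NF-kB genes went with them: 14 of 15 were higher in skin, 9 of them at least 2-fold, and their median log2 ratio was 1.25. Nfkbid, which encodes the nuclear inhibitor IkBNS (chromosome 7, 30421732 to 30428746), had 549 CPM in skin and 21.3 CPM in liver, 25.8-fold higher (19.0 to 36.1), with 12.4 CPM in lung and 33.8 CPM in lymph node. Nfkbia, the cytoplasmic inhibitor, had 3708 and 604 CPM, and Tnfaip3, the deubiquitinase A20 that ends signaling, 933 and 213 CPM. Among the subunits themselves Rel had 110 CPM in skin and 21.8 CPM in liver, whereas Rela had 43.4 and 43.0 CPM. Nfkbib and Nfkbie, further inhibitors, had 87.5 and 14.9 CPM in skin against 71.05 and 21.3 CPM in liver, so inhibitors and subunits each ranged from little difference to several-fold. Nfkbid was counted in 55.7% of skin cells and 3.42% of liver cells.

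Of 27 genes of growth arrest, survival and death, 17 were higher in skin and 10 lower, a split close to that of all genes, but 14 were at least 2-fold higher and 2 at least 2-fold lower, with a median log2 ratio of 1.20. Gadd45b, a stress sensor of the GADD45 family, had 1303 CPM in skin and 116 CPM in liver, 11.3-fold higher (9.84 to 12.9). Lung had 100 CPM and lymph node 42.6 CPM of Gadd45b. Cdkn1a, the p21 gene, had 578 and 71.6 CPM, 8.07-fold higher (6.79 to 9.67), with 50.5 CPM in lung and 15.7 CPM in lymph node. The antiapoptotic gene Bcl2a1d had 746 and 33.2 CPM and Bcl2a1b 1049 and 106 CPM, but these paralogs are near-identical and their counts cannot be separated with certainty. Cdkn2d, which encodes the inhibitor p19, had 75.6 CPM in skin and 172 CPM in liver, and Bak1, a death effector, 24.6 and 56.0 CPM. Cycling cells, called from at least 3 of 12 proliferation genes, made up 4.08% of skin cells (3.05 to 5.35) and 4.32% of liver cells (2.78 to 6.35), intervals that overlap. Of 37 cell cycle genes 25 were higher in skin and 12 lower, and 6 were at least 2-fold higher (16.2%, near the 16.4% of all genes) and 0 at least 2-fold lower. Of those 6, Mki67, Stmn1, Tuba1b and Aurka were under 2-fold with size factors. Top2a, a topoisomerase of dividing cells, had 89.0 and 36.3 CPM.

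Most cytokine and chemokine genes were higher in skin, while the most abundant was lower. Of 18 counted, 13 were higher and 5 lower, 12 were at least 2-fold higher in skin and 2 at least 2-fold lower, with a median log2 ratio of 2.21. Ccl1, a chemokine whose receptor is CCR8, had 1658 CPM in skin and 2.07 CPM in liver, 799-fold higher (312 to 2934), with 0.248 CPM in lung and 14.6 CPM in lymph node. A single skin cell held 1410 of the 5457 skin counts, and without it the ratio was 593. Ccl1 was counted in 15.5% of skin cells, while its share of liver cells, 0.380%, lies below background. Xcl1, which attracts cross-presenting dendritic cells, had 988 CPM in skin and 51.3 CPM in liver, 19.3-fold higher (15.8 to 23.8). Without the skin cell that held 1241 of 3254 counts it was 11.9-fold higher. Lung had 9.04 CPM and lymph node 66.9 CPM of Xcl1. Ifng, the gene of interferon gamma, was more evenly spread, at 2245 and 379 CPM, 5.92-fold higher (5.49 to 6.399), with counts in 69.5% of skin cells and 37.8% of liver cells.

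Tnf had 204 CPM in skin and 30.1 CPM in liver, 6.79-fold higher (5.18 to 9.03), and Il2, a T cell growth factor gene, 152 and 18.2 CPM, 8.35-fold higher (5.92 to 12.1). Their shares were 25.6% of skin cells and 5.89% of liver cells for Tnf, and 21.7% and 3.04% for Il2. Ccl3, an inflammatory chemokine, was 7.30-fold higher at 462 and 63.3 CPM, with 454 of 1521 skin counts in 1 cell, and 5.12-fold higher without that cell. Ccl4 had 2383 CPM in skin and 942 CPM in liver, with close shares of 58.4% and 53.6% of cells. The members at least 2-fold lower in skin were Ccl9, on 6 counts in skin and 21 in liver (5.98-fold, 2.33 to 18.1), and Ccl5. Ccl5, a chemokine stored by memory cells, had 8574 CPM in skin and 46612 CPM in liver, 5.44-fold lower in skin (5.36 to 5.51), with 42510 CPM in lung and 15420 CPM in lymph node. It thus stood higher in liver and lung than in skin and lymph node, the division of the column names. Because of Ccl5 the summed list was lower in skin, at 18146 CPM against 49186 CPM in liver, although its median ratio was above 1. Cxcl10, an interferon-induced chemokine, had 76.2 and 39.4 CPM, and 1 liver cell held 37 of its 76 liver counts.

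Genes of type 2 immunity and tissue repair were few in the listed genes, and all 9 counted were higher in skin, 7 at least 2-fold, with a median log2 ratio of 1.94. With so few genes the median moved to 3.46 without called doublets, 2.97 without each gene's top cells and 2.92 with a summed count of at least 100. Areg, the epidermal growth factor relative amphiregulin, had 235 counts in skin and 1 in liver, a ratio of 138 (24.5 to 5459). Il13 had 177 counts in skin and 3 in liver, 34.6-fold higher (11.6 to 169), and was counted in 5.94% of skin cells and 0.190% of liver cells. Ccr8, the receptor for Ccl1, had 39.8 CPM in skin and 1.56 CPM in liver on 3 counts, 25.6-fold higher (8.56 to 126), with 25.8 CPM in lymph node. The liver shares of Areg, Il13 and Ccr8 are all at background, and each ratio is a possible lower bound. Gata3, the master transcription factor of type 2 responses, differed much less, at 103 and 70.5 CPM (1.46-fold, 1.19 to 1.79). Furin, a protease that activates TGF-beta precursors, had 132 CPM in skin and 8.82 CPM in liver, 14.9-fold higher (9.21 to 25.8). Lung had 8.67 CPM and lymph node 21.0 CPM of Furin.

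TGF-beta is the signal known to raise CD103 in epithelia. Of 22 counted genes of the TGF-beta list, 13 were at least 2-fold higher in skin (59.1%, against 16.4% of all genes). None was 2-fold lower, and the median log2 ratio was 1.30. Summed, the list had 2863 CPM in skin, 2083 CPM in liver, 2505 CPM in lung and 3494 CPM in lymph node. Whether TGF-beta signaling bears on the Itgae difference was not tested. Skil, a SMAD corepressor induced by the pathway, had 152 CPM in skin and 11.9 CPM in liver, 12.7-fold higher (8.37 to 20.2). Lung had 12.1 CPM and lymph node 27.6 CPM of Skil. Ldlrad4 and Pmepa1, membrane proteins that dampen TGF-beta signaling, had 52.5 and 35.2 CPM in skin against 4.15 and 3.11 CPM in liver. Smad7, the inhibitory SMAD, had 163 and 62.2 CPM, and the ligand gene Tgfb1 347 and 114 CPM. The receptor Tgfbr2 and the effector Smad4 differed less, with Tgfbr2 at 65.0 CPM in skin and 43.6 CPM in liver. Another receptor, Tgfbr3, had 15.2 and 7.26 CPM (2.09-fold, and 1.79-fold with size factors).

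Several named surface genes had few counts in liver. Sdc4, the heparan sulfate proteoglycan syndecan 4 (chromosome 2, 164424247 to 164443887), had 120 CPM in skin and 1.04 CPM in liver on 2 counts, 116-fold higher (31.9 to 961), with 1.73 CPM in lung and 11.3 CPM in lymph node. Sema6d, a semaphorin, had 82.6 and 2.07 CPM, 39.8-fold higher (15.4 to 147), with 1.24 CPM in lung and 12.8 CPM in lymph node. Tnfsf11, the gene of RANKL, had 58.9 and 2.07 CPM, 28.4-fold higher (10.9 to 105), and Cd40lg, the CD40 ligand gene, 146 and 11.9 CPM, 12.2-fold higher (8.07 to 19.5). Lung had 0.743 and 11.9 CPM and lymph node 8.16 and 54.9 CPM of Tnfsf11 and Cd40lg. For Sdc4, Sema6d, Tnfsf11 and Cd40lg lymph node lay between skin and the pair of lung and liver, the order of the pseudogene counts. Cdh1, Furin and Skil had that order too, whereas Fos, Nr4a3, Gadd45b and Kdm6b did not. The part of the library was not tested. Cd40lg was counted in 21.4% of skin cells and 2.09% of liver cells. The liver shares of Sdc4, Sema6d, Cdh1, Tnfsf11, Cd40lg, Furin, Skil, Nr4a3 and Fosb were between 0.190% and 2.28%, within background, while their skin shares ran from 8.36% to 32.2%. The 4 measured markers of CD4 and regulatory T cells, of 7 listed, summed to 187 CPM in skin and 28.5 CPM in liver, and most of that was Cd40lg. Of 22 TNF superfamily and costimulation genes 8 were at least 2-fold higher in skin and 2 at least 2-fold lower, among them Cd48, an adhesion ligand, at 453 CPM in skin and 1296 CPM in liver. Kdm6b, a histone H3 lysine 27 demethylase gene, had 400 CPM in skin and 41.0 CPM in liver, 9.76-fold higher (7.78 to 12.4). Lung had 13.8 CPM and lymph node 34.9 CPM of Kdm6b.

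The granzyme genes given here, apart from Gzmc, were lower in skin than in liver. Gzma, the gene of granzyme A (chromosome 13, 113093825 to 113100981), had 1401 CPM in skin and 11049 CPM in liver, 7.89-fold lower in skin (7.64 to 8.14), with 14636 CPM in lung and 692 CPM in lymph node. Gzmk, another granzyme gene, had 54.1 and 325 CPM, 6.00-fold lower (5.08 to 7.13). Gzmb, the granzyme that cleaves caspases, had 859 and 1695 CPM, 1.97-fold lower (1.88 to 2.08), with counts in 37.6% of skin cells and 84.2% of liver cells. Gzmm, the granzyme M gene, had 2 counts in skin and 43 in liver, 36.7-fold lower in skin (9.56 to 313), and Gzmc was higher in skin at 29.2 CPM against 12.5 CPM. Gzma and Gzmb were counted in the same cell in 16.3% of skin cells (14.2 to 18.7) and 71.1% of liver cells (67.0 to 74.9). The products of their separate shares were 10.6% in skin and 70.6% in liver. Serpinb9 and Serpinb6b, serpins of which the first protects against granzyme B, had 29.5 and 23.7 CPM in skin against 113 and 136 CPM in liver, and liver also stood above lung (13.6 and 40.6 CPM) for both. Other genes of the list hardly differed: Nkg7, a granule membrane gene, had 4678 CPM in skin and 4745 CPM in liver (1.01-fold, 0.988 to 1.04), and Fasl 180 and 185 CPM. Of the 16 counted genes 5 were at least 2-fold lower in skin and 1 at least 2-fold higher, and the median log2 ratio was -0.075.

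All 15 genes named as higher in liver stood higher in liver and lung than in skin and lymph node. This is the division of the column names, and Gzma is among these genes. Most of those not described above are given here. Ggt1, a gamma-glutamyltransferase of glutathione breakdown (chromosome 10, 75561604 to 75586200), had 2 counts in skin and 123 in liver, 105-fold lower in skin (28.5 to 877), with 71.1 CPM in lung and 3.97 CPM in lymph node. Fcgrt, the gene of the neonatal Fc receptor (chromosome 7, 45092990 to 45103851), had 9.11 CPM in skin and 274 CPM in liver, 30.1-fold lower (20.8 to 45.0), with 338 CPM in lung and 12.8 CPM in lymph node. Ifitm1, an interferon-induced membrane gene, had 1164 and 8324 CPM, 7.15-fold lower (6.91 to 7.41), with 10703 CPM in lung and 844 CPM in lymph node. For these 3 genes, skin and lymph node were low and liver and lung high, the same division that the column names show. Esm1, which encodes the proteoglycan endocan, had 6.07 and 69.5 CPM, Tspan32, a tetraspanin, 4.25 and 72.1 CPM, Rom1 4.25 and 56.0 CPM, and Lcn4 10.6 and 101 CPM. They followed that division too. Lung and lymph node had 75.9 and 12.8 CPM of Esm1 and 115 and 30.9 CPM of Tspan32. For Rom1 these libraries had 75.8 and 8.16 CPM, and for Lcn4 125 and 17.4 CPM. Slc36a3os had 5.16 and 54.5 CPM, with 56.5 CPM in lung and 8.38 CPM in lymph node, but it lies opposite another gene and the strand of counting is not given. The shares of skin cells with Ggt1, Fcgrt, Esm1, Tspan32, Rom1, Lcn4 and Slc36a3os were all at or below 1.67%, within background.

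**Figure D4:**
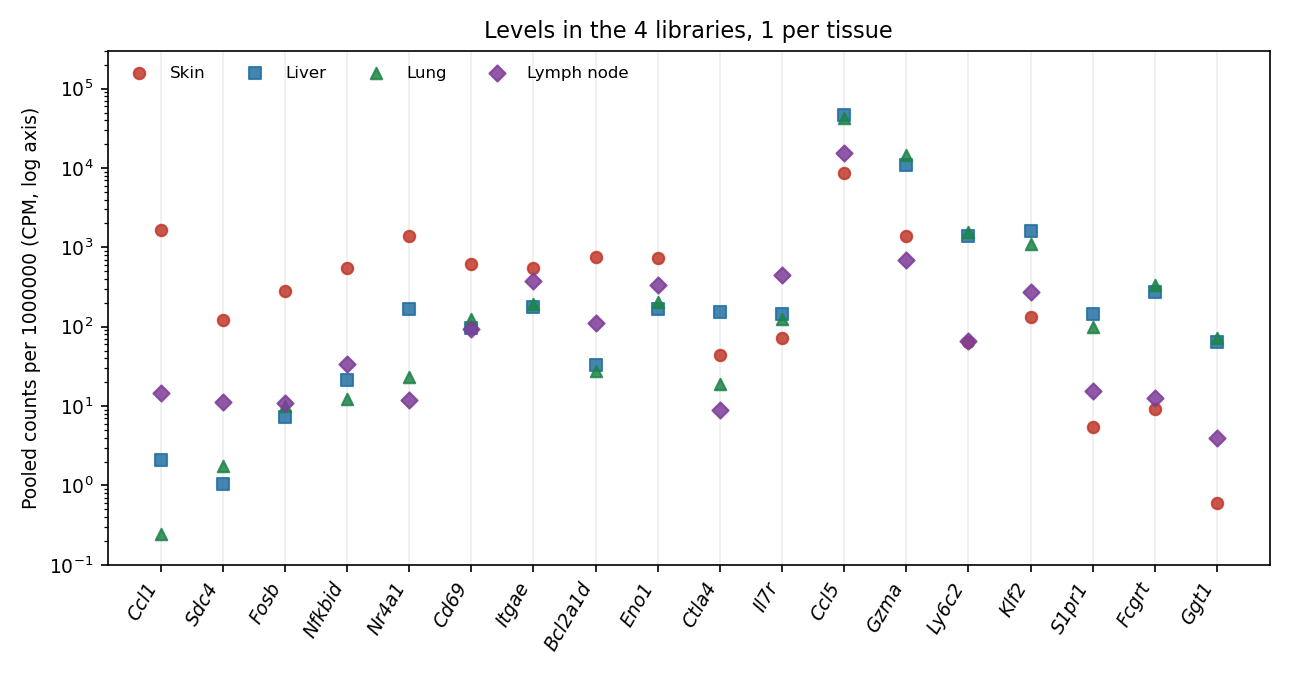
Pooled levels (vertical, CPM, log axis) of 18 genes in the 4 libraries, skin as circles, liver as squares, lung as triangles and lymph node as diamonds, with 1 library per tissue. Fosb and Nfkbid stood highest in skin, at 278 and 549 CPM, whereas Gzma, Ly6c2, Fcgrt and Ggt1 were high in both liver and lung.

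The Gimap genes, small GTPases of lymphocyte survival, were lower in skin without exception. All 8 were at least 2-fold lower, their median log2 ratio was -1.98, and the list had 332 CPM summed in skin against 1440 CPM in liver, 1473 CPM in lung and 1197 CPM in lymph node. Gimap7 had 2.13 CPM in skin and 65.3 CPM in liver, 30.7-fold lower (14.5 to 78.0), and Gimap4 54.1 and 306 CPM, 5.66-fold lower (4.78 to 6.73). Lymph node had 255 CPM of Gimap4, near the liver level, and 27.6 CPM of Gimap7, between skin and liver. These genes lie in 1 cluster and resemble one another, and reads may have been shared among them.

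Interferon stimulated genes were also lower in skin, at least 2-fold for 21 of 43 counted, with 2 at least 2-fold higher and a median log2 ratio of -0.99 that reached -1.22 with size factors. Ifi47, an immunity-related GTPase, had 48.9 CPM in skin and 154 CPM in liver, 3.14-fold lower (2.58 to 3.83), with 135 CPM in lung and 258 CPM in lymph node. Ifit1, which binds foreign RNA, had 22.5 and 62.8 CPM, and Bst2, the viral tether, 142 and 296 CPM. Isg20, an exonuclease gene, went the other way at 72.0 CPM in skin and 22.8 CPM in liver. Isg15, a ubiquitin-like modifier, and Irf1 did not share the difference, at 151 and 129 CPM in skin against 152 and 121 CPM in liver. Ifng was higher in skin while most genes of this list were lower. The list was not divided by type of interferon, and the response to interferon gamma was not tested. Ifngr1, a receptor chain for interferon gamma, had 379 CPM in skin and 364 CPM in liver.

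Inhibitory receptors were split, with 4 of 14 at least 2-fold higher in skin and 3 at least 2-fold lower. These are 28.6% and 21.4% of the list, against 16.4% and 5.07% of all genes. Pdcd1, the gene of PD-1, had 272 CPM in skin and 154 CPM in liver, 1.76-fold higher (1.54 to 2.02), with only 21.4 CPM in lung and 28.5 CPM in lymph node. Ctla4 had 44.0 CPM in skin and 154 CPM in liver, 3.49-fold lower in skin (2.85 to 4.28), with 19.1 CPM in lung and 9.05 CPM in lymph node. Skin and liver were thus the highest 2 libraries for both receptors, with the order reversed between them. Cells with counts of both made up 2.88% of skin cells (1.96 to 4.06) and 7.22% of liver cells (5.16 to 9.78). The products of their separate shares were 1.89% in skin and 5.88% in liver. Lair1, an inhibitory collagen receptor, had 2 counts in skin and 18 in liver (15.4-fold lower, 3.68 to 137). Cd160, a receptor of resident and exhausted cells, had 33.4 and 4.67 CPM, and Lag3 and Havcr2 had intervals that held equality, at 1.21-fold (0.918 to 1.60) and 0.996-fold (0.735 to 1.36). Icos, a costimulatory receptor, had 325 CPM in skin and 186 CPM in liver, with 47.3 CPM in lung and 88.9 CPM in lymph node.

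Of 13 migration receptors (chemokine receptors and S1pr1) 2, Ccr7 and Ccr8, were at least 2-fold higher in skin and 3 at least 2-fold lower, S1pr1 the furthest. These are 15.4% and 23.1% of the list, against 16.4% and 5.07% of all genes. Ccr10, a receptor for a skin chemokine, was also lower, at 48.9 CPM in skin and 115 CPM in liver. Ccr2, a receptor for inflammatory monocyte chemokines, had 130 CPM in skin and 313 CPM in liver, and Cxcr3, the receptor for interferon-induced chemokines, 153 and 245 CPM. Cxcr4 had 49.2 CPM in skin and 85.6 CPM in liver, with 17.2 CPM in lung and 11.3 CPM in lymph node, so it was highest in liver. Integrins were mixed, with 7 of 19 adhesion genes at least 2-fold higher in skin (36.8%) and 3 at least 2-fold lower (15.8%). Itgax, the CD11c chain, had 5.77 and 51.3 CPM, 8.90-fold lower in skin (5.41 to 15.4), and Icam2 13.4 and 72.6 CPM, while Icam1 had 166 and 45.6 CPM and Cd44, the hyaluronan receptor, 332 and 126 CPM. Among killer lectin receptors Klre1 was 8.43-fold lower in skin (6.79 to 10.6), at 30.4 and 256 CPM, and Klrd1, the CD94 chain, 2.10-fold lower at 525 and 1101 CPM, whereas Klrk1, the NKG2D gene, had 937 and 957 CPM. Klre1 also followed the division of the column names, with 268 CPM in lung and 40.4 CPM in lymph node.

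**Figure D5:**
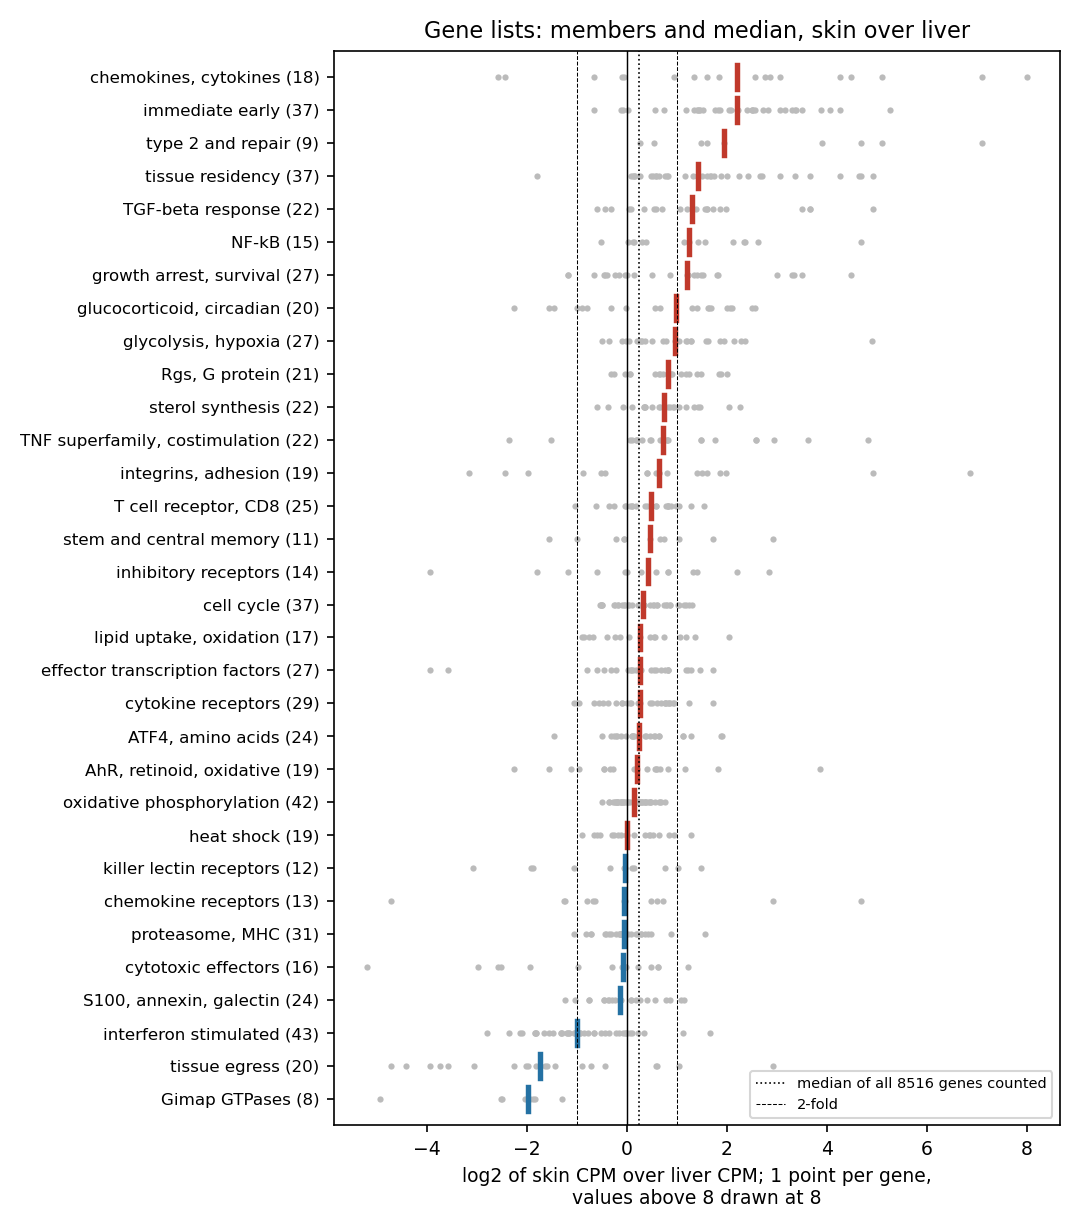
Log2 ratio of skin over liver (horizontal) of each counted gene (grey points, values above 8 drawn at 8) in 32 gene lists, with the median of each list as a thick bar, red above 0 and blue below, the number of counted genes in brackets, 2-fold as dashed lines and the median of all genes as a dotted line. Chemokines and cytokines and immediate early genes had the highest medians at 2.21 and 2.20, and Gimap and egress genes the lowest at -1.98 and -1.73, against 0.25 for all genes; the medians for heat shock, AhR and oxidative phosphorylation genes change sign with size factors.

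Of 25 genes of T cell identity, 3 were at least 2-fold higher in skin and 1 at least 2-fold lower. These are 12% and 4% of the list, below the 16.4% and 5.07% of all genes. The 2 chains of CD8 went opposite ways: Cd8a had 1374 CPM in skin and 772 CPM in liver, 1.78-fold higher (1.68 to 1.89), and Cd8b1 had 1429 and 2915 CPM, 2.04-fold lower (1.96 to 2.12). Lung had 687 and 2959 CPM and lymph node 1760 and 2172 CPM of the same genes, in that order. For both chains skin and lymph node thus lay apart from liver and lung, the division of the column names. Both chains were counted in most cells, Cd8a in 89.97% and 72.2% and Cd8b1 in 88.7% and 98.9% of skin and liver cells. Lck, Cd2 and Cd3d, of proximal receptor signaling and adhesion, lay close to equality, with skin-over-liver ratios of 0.977, 1.04 and 1.07. Il7r, the survival receptor of memory cells, had 72.9 CPM in skin and 146 CPM in liver, with 443 CPM in lymph node, and Tcf7, the transcription factor of stem-like memory, 34.02 and 16.6 CPM.

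Glycolysis genes were higher in skin while oxidative phosphorylation genes lay close together. Of 27 glycolysis and hypoxia genes 13 were at least 2-fold higher in skin and none 2-fold lower, with a median log2 ratio of 0.96. With size factors Pfkl, Aldoa and Ldha were under 2-fold, at 1.96, 1.94 and 1.76. Pkm, the pyruvate kinase gene, had 558 CPM in skin and 115 CPM in liver, with 136 CPM in lung and 288 CPM in lymph node. Eno1, which encodes enolase, had 736 and 165 CPM, with 203 CPM in lung and 337 CPM in lymph node. For both genes lymph node lay between skin and the pair of lung and liver, the order of the pseudogene counts, and both have copies elsewhere in the genome (the part of the library was not tested). Hk2, the inducible hexokinase gene, did not follow that order, at 75.9 CPM in skin and 19.7 CPM in liver against 6.57 CPM in lung and 3.31 CPM in lymph node. Pgk1, at 77.2 and 2.59 CPM, was left out of the named genes because it has a near-identical relative. Of 42 oxidative phosphorylation genes none was 2-fold apart in either direction, and their median log2 ratio of 0.14 became -0.093 with size factors. Of 22 sterol synthesis genes 7 were at least 2-fold higher in skin, among them Insig1, the sterol sensor, at 79.9 and 16.6 CPM. None was 2-fold lower. Fdps and Idi1 of this list were under 2-fold with size factors, at 1.77 and 1.94.

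Transcription factors of effector and resident cells were mostly close, with 5 of 27 at least 2-fold higher in skin and 2, Klf2 and Klf3, at least 2-fold lower. These are 18.5% and 7.41% of the list, near the 16.4% and 5.07% of all genes. Tbx21, which encodes T-bet, had 190 CPM in skin and 112 CPM in liver (1.70-fold, 1.46 to 1.997), and Rora 255 and 217 CPM. Zfp683, the gene of HOBIT, had 18 counts in skin and 6 in liver, too few to separate the tissues (1.76-fold, 0.668 to 5.41). The metallothioneins Mt1 and Mt2, which bind zinc and copper, were lower in skin, at 42.8 and 9.72 CPM against 127 and 46.7 CPM in liver, with 155 and 52.5 CPM in lung. Nr3c1, the glucocorticoid receptor gene, had 121 CPM in skin and 37.9 CPM in liver, 3.21-fold higher (2.50 to 4.18). Rgs2 and Rgs1, brakes on G protein signaling, had 1704 and 895 CPM in skin against 427 and 337 CPM in liver. Of the 31 proteasome and MHC class I genes 1 was at least 2-fold higher and 1 at least 2-fold lower, and B2m, the light chain of MHC class I, had 6719 and 7251 CPM.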

How the data were processed

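The file deposited by the authors holds whole-number counts for 9223 gene symbols and 5727 cells; all its columns name a tissue. Bowtie, RSEM and the build mm10 are named in the submitters' processing notes, without versions. Whether counts are of unique molecular identifiers, and how genes and cells were filtered, the labels do not say. A gene's CPM is its count over all cells of a tissue per 1000000 counts of that tissue, and all 1780 skin and liver cells were kept. Ratios carry the exact 95% conditional binomial interval, shares the Clopper-Pearson interval, and a tissue at 0 was set at 3 counts. Called means a CPM ratio of at least 2 either way. Scrublet (expected rate 0.05) marked 27 skin cells (2.21%) and 17 liver cells (3.06%), which stayed in the main values. Tests were not possible with a single library a tissue.

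Per direction, the 15 genes were named whose interval bound nearest equality was farthest from it, taken from genes that reached 50 CPM in the higher tissue and were detected in 10% of its cells. Ribosomal, mitochondrial, receptor segment, predicted, pseudogene and multi-copy genes were left out, the last including genes with a related sequence of the same name, a rule sharpened after values were seen. List members could also be named. The members and lists were chosen with earlier results of these data known. Positions are from GENCODE M21 on GRCm38 and promoters from RefSeq. Python 3.11.15, numpy 2.4.6, scipy 1.17.1, pandas 2.3.3 and scanpy 1.11.5 were used. The ratio procedure was tested on simulated data. Its 95% intervals held a true ratio of 1 for 95.0% of 2715 genes. At true ratios of 2 and 0.5 they held it for 88.5% of 52 and 91.1% of 45 genes. At 4 and 0.25 they held it for 94.4% of 54 and 98.0% of 49 genes.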

Additional observations from a re-analysis of the deposited data

How the results depend on the processing

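No paired analysis was possible because the columns carry no replicate number and no test was made. With 1 library per tissue, no interval covers variation between mice or libraries, and depth limits genes with few counts, whose ratios have wide intervals. Of 674 list or named genes counted, 261 were past 2-fold, of which 224 stayed so under every scaling, cell and weighting alternative run for single genes, and 0 of the 261 changed direction. Counts of genes at least 2-fold apart were 559 higher and 187 lower with a summed count of at least 100, and 394 and 154 by the interval bound; 685 were lower with size factors. Size factors moved all 32 list medians by the same -0.23, among them to -1.22 (interferon stimulated), 0.039 (effector transcription factors), 0.59 (Rgs), -0.093 (oxidative phosphorylation) and -0.30 (proteasome and MHC). The last was -0.162 with totals free of ribosomal, mitochondrial, pseudogene and predicted genes, and the glucocorticoid and circadian median, 0.99, was -0.79 over genes with at least 100 counts, where fewer genes remain. The AhR median, 0.21, was -0.022 with size factors, and the stem and central memory median, 0.47, was -0.055 over genes with at least 1 count. Without thinning, Cd69 with Itgae was counted in 48.0% of skin and 9.53% of liver cells, Klf2 with S1pr1 in 1.14% and 34.7%, Klf2 with Cd69 in 14.4% and 19.96%, Pdcd1 with Ctla4 in 3.76% and 13.5%, and Gzma with Gzmb in 18.9% and 77.2%.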

Other observations

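A few genes outside the naming rule, chosen after their values were seen, were absent from liver or differed widely. Cd83, a surface protein of activated lymphocytes and dendritic cells, had 148 counts in skin and 0 in liver, at least 28.9-fold higher with liver set at 3 counts, and 0.619 CPM in lung and 4.63 CPM in lymph node. Ptger3, a prostaglandin E2 receptor gene, had 99 counts in skin and 0 in liver, at least 19.3-fold higher, with 0 CPM in lung and 4.85 CPM in lymph node. Its relative Ptger4 had 74.4 CPM in skin and 26.4 CPM in liver. Pycard, the inflammasome adaptor ASC, was lower in skin at 152 CPM against 611 CPM in liver, 4.03-fold (3.62 to 4.48), with 782 CPM in lung and 169 CPM in lymph node. Acp5, a tartrate-resistant phosphatase gene, had 16.7 CPM in skin and 115 CPM in liver, 6.89-fold lower (5.11 to 9.44). Rgcc, a cell cycle regulator, had 1774 CPM in skin and 450 CPM in liver. Vps37b, a subunit of the ESCRT machinery, had 888 CPM in skin and 432 CPM in liver, against 116 CPM in lung and 64.2 CPM in lymph node, so liver also stood above lung and lymph node for it.

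Gene segments of the gamma and delta receptor chains were counted in both tissues. Trdc had 62.0 CPM in skin and 27.5 CPM in liver, with a count at equal depth in 6.59% of skin cells, and Tcrg-C2 had 40.4 and 108 CPM, with a count in 16.7% of liver cells. Cd74, the MHC class II invariant chain, had 171 CPM in skin and 101 CPM in liver, counted at equal depth in 18.8% and 9.89% of cells. The predicted genes AY036118 and Gm42418 had 2585 and 2550 CPM in skin against 34.2 and 134 CPM in liver, with 1040 and 1118 CPM in lymph node, the same division as the pseudogenes. The only compared gene with 0 counts in skin was the predicted gene Gm4208, with 201 counts in liver and 106 CPM in lung.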
